A study of Mus musculus with 2 samples.

Results

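Genes of DNA replication and S phase entry were followed in double-positive (DP) thymocytes, the stage at which T cell precursors carry both CD4 and CD8. The group holds 37 genes chosen by name for known roles in copying DNA, out of 27595 gene names on the array design. The choice was made with earlier results of these data known. The 37 genes were measured by 52 of 41174 probes, after older names such as Cdc45l were brought to current symbols. All 37 were among the 14923 genes tested, and the probe that stood for each gene was well above background in both channels of both arrays.

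The tested cells came from Bcl11bF/FCD4Cre/Tcra-/- mice, which carry floxed Bcl11b and a Cre transgene under Cd4 regulatory elements, and were labelled with Cy5. The control cells came from TCRa-/- mice and were labelled with Cy3. Both groups therefore lack Tcra, the alpha chain gene of the T cell receptor, and their thymocytes stop before positive selection. The comparison addresses the part that the T lineage transcription factor Bcl11b plays before selection. Each of 2 arrays carried 1 sample of either genotype, and the labels call them biological replicates 1 and 2. The sources used here give no ages, no number of mice per sample, no cell sorting scheme and no deleted part of Bcl11b. Neither Cre nor a floxed allele is named for the controls, and no array had the dyes the other way round, so Cre, dye and loss of Bcl11b cannot be told apart.

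On replicates 1 and 2, 56.5% and 50.5% of spots passed the scanner software's test against background for the deficient samples, against 51.7% and 50.6% for the control samples. Bcl11b was lower in the deficient samples on both arrays by both of its probes, with log2 ratios of -1.37 and -2.16 for one and -1.40 and -0.28 for the other. For the labelled cell type 12 markers of DP cells were read, and all 12 gave signals well above background in all 4 samples. Such signals do not show how pure the cells were, and 10 of the 12 were lower in the deficient samples on both arrays. Every value below comes from 2 arrays, which limits its precision. In cells taken in bulk, a change in the share of cycling cells and a change in RNA per cell cannot be told apart.

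Replication begins when the origin recognition complex, CDC6 and CDT1 load the ring of MCM2 to MCM7 proteins onto DNA in G1 phase. Cyclin E and the E2F transcription factors then commit cells to S phase, in which polymerases, the PCNA clamp and its loader, and enzymes of deoxynucleotide synthesis copy the genome. In the thymus, cells divide rapidly as they become DP, and most DP cells then rest until selection.

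Replication genes were higher in Bcl11b-deficient than in control DP cells by a small amount across all 6 role groups. Of the 37 genes, 34 were higher on both arrays, where 36.4% of all genes tested were. The exceptions were Orc2, which was lower on both, as were 38.5% of all genes, and Rpa1 and Rpa3, which differed in direction between arrays. The members' median log2 ratio was 0.40 on replicate 1 and 0.45 on replicate 2, while the medians of all genes were -0.02 and 0.01. Their mean ratios ran from -0.26 to 1.08, and 3 members, Mcm6, Mcm3 and Pcna, were at least 1.5-fold higher on both arrays, against 2.47% of all genes. No member was 1.5-fold lower on both, against 1.21%.

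No member passed limma's test over all genes, which called 0 of 14923 genes (0%) at an adjusted p of 0.05. The members' limma adjusted p ran from 0.0711 to 0.843. Without adjustment 27 members had a p under 0.05 and all 27 were higher, while 15.1% of all genes passed in that direction and 14.1% as lower. Separate-channel limma, which fits the 4 channels with the array as a block, called 12 members, all higher (adjusted p from 0.0219 to 0.0465), against 4.74% of all genes, and none as lower, against 3.81%. It used the same 2 arrays and is not independent of the main test. On the processed signals limma called no member, against 0.744% of all genes as higher and 0.684% as lower. With median centring in place of loess it called 21 members as higher, against 5.92% of all genes. That setting does not correct for intensity. It moved the median of all genes to 0.13, and that of the 12 DP markers from -0.31 to 0.05. The shift thus differed between sets of genes, and these 21 calls cannot be separated from it.

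**Figure D1:**
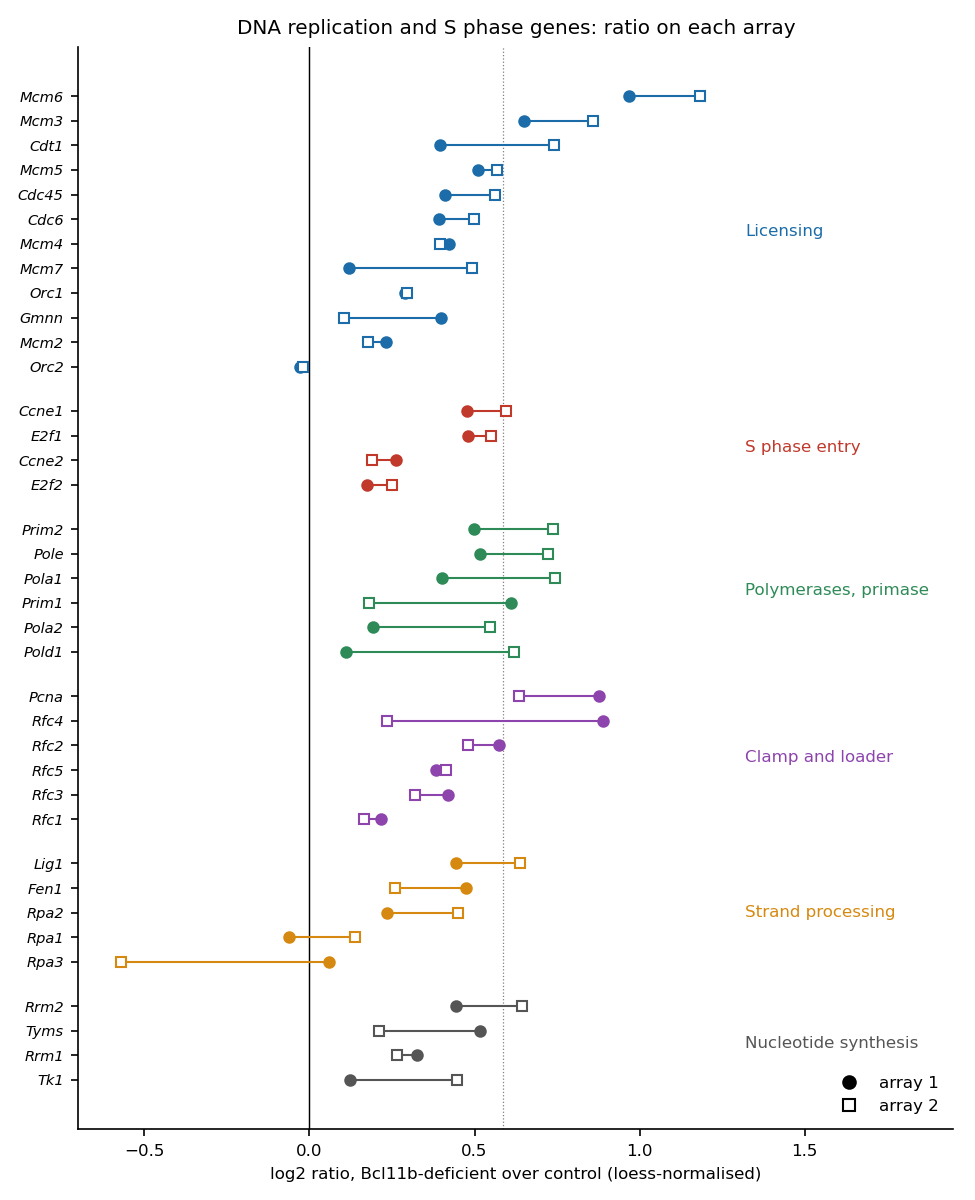
Log2 ratio of Bcl11b-deficient over control cells for the 37 genes, grouped by role, with a filled circle for array 1, an open square for array 2 and a line joining them. The solid line marks no difference and the dotted line a 1.5-fold higher level. 34 genes lie right of the solid line on both arrays, and Mcm6, Mcm3 and Pcna lie right of the dotted line on both.

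The same pattern was seen in the signals of single samples. In the processed signals, which the scanner software corrects and dye-normalises, both deficient samples lay above both control samples for 32 of the 37 genes, against 25.3% of all genes. Both lay below for E2f2 and Orc2, against 32.1% of all genes, and the samples overlapped for Ccne2, Mcm7 and Rpa3. Signals below are these processed signals, while the ratios beside them are loess-normalised unless stated otherwise.

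**Figure D2:**
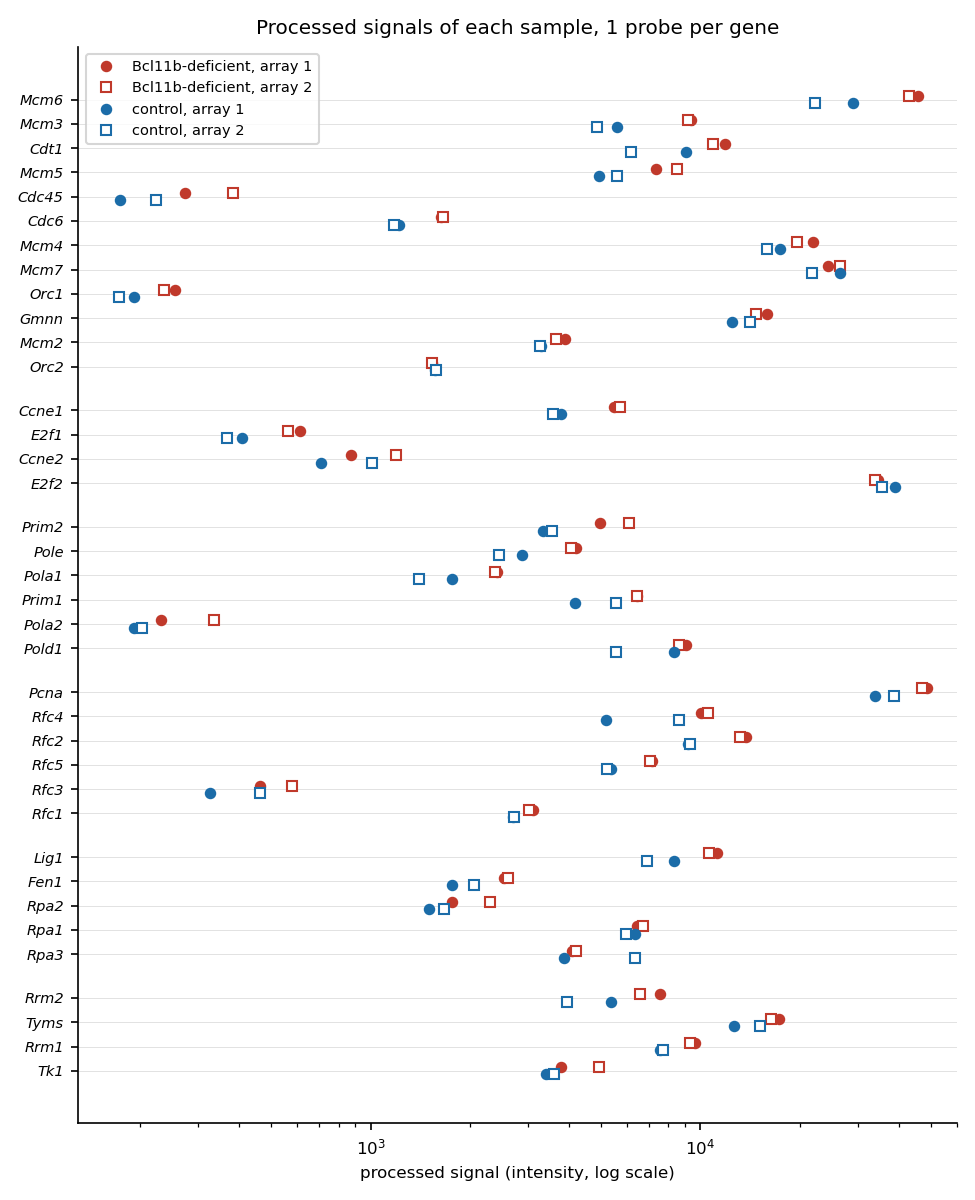
Processed signal (intensity, log scale) of the probe for each gene in the 2 Bcl11b-deficient samples (red) and the 2 control samples (blue), with circles for array 1 and squares for array 2. Signals of different genes come from different probes and are not comparable with each other. Red points lie right of both blue points for 32 genes.

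Mcm6, a subunit of the helicase ring, had the highest ratio of the group. Its processed signals were 45672 and 42991 in deficient samples, against 29113 and 22257 in control samples, and the groups did not overlap. Its log2 ratios of 0.97 and 1.18 gave a mean of 1.08 ± 0.09 (SE, limma, n = 2 arrays, adjusted p = 0.0711), at a probe on chromosome 1 at 130159147 to 130159206 (mm8 build). Mcm3, another subunit, gave 9375 and 9153 in deficient samples, against 5599.7 and 4843 in control samples, again with no overlap. Its ratios were 0.65 and 0.86 (mean 0.75 ± 0.09, limma adjusted p = 0.0763), and its probe lies on chromosome 1 at 20788189 to 20788248. Pcna, the sliding clamp that holds polymerases on DNA, gave 48732 and 46921 in deficient samples, against 33961 and 38757 in control samples. Its ratios were 0.88 and 0.64 (mean 0.76 ± 0.10, limma adjusted p = 0.0790), from a probe on chromosome 2 at 131941125 to 131941262. All 3 were called by separate-channel limma, with adjusted p of 0.0219, 0.0253 and 0.0352 for Mcm6, Mcm3 and Pcna.

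The size for Pcna depended on how bright genes were treated. At its intensity, the median log2 ratio of all genes was 0.47 on replicate 1 and 0.57 on replicate 2. After centring on genes of like intensity its mean was 0.24, and the processed signals gave 0.41. Mcm6 lay where the median gene stood at 0.17 and 0.20, and had 0.89 after that centring and 0.80 from the processed signals. Mcm3 lay where the median gene was near 0, and had 0.77 and 0.83. The 5 members in the range where the median gene reached 0.1 or more were Mcm4, Mcm6, Mcm7, E2f2 and Pcna. Over all members, the median after centring was 0.36.

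**Figure D3:**
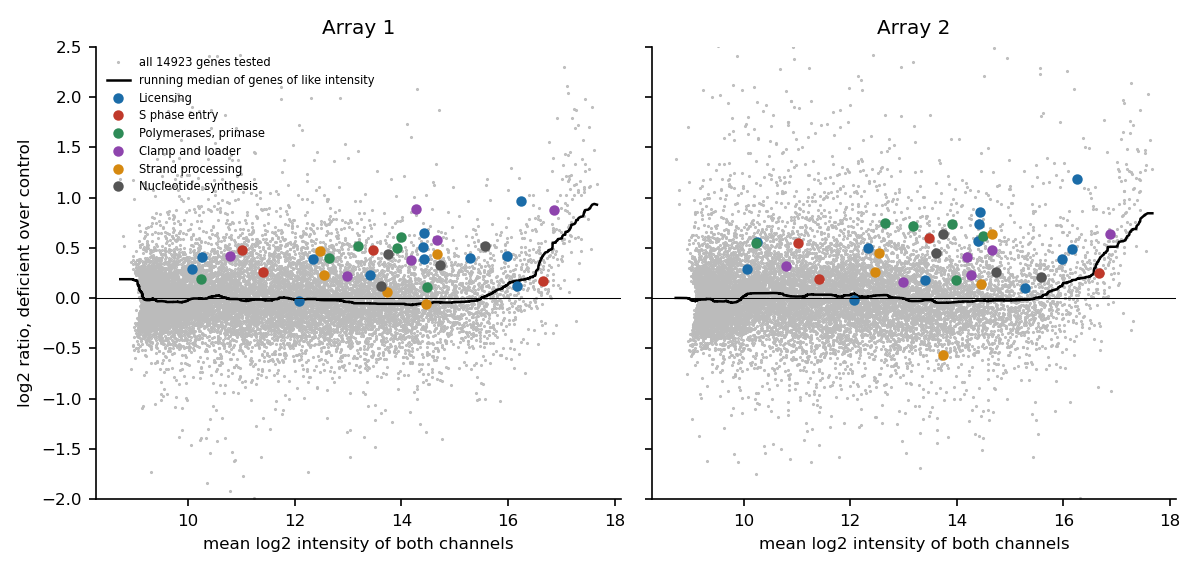
Log2 ratio of deficient over control cells against mean log2 intensity of both channels, for array 1 (left) and array 2 (right), with all 14923 genes in grey, the running median of genes of like intensity as a black line and the members coloured by role. Over most of the range the line stays near 0 and nearly all members lie above it, and at higher intensities the line itself climbs. The vertical range leaves out the few genes beyond it.

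The promoters of these 3 genes are shown because they head the group and because E2F factors are known to act on many replication genes. Each sequence is from RefSeq (GRCm38.p6 build), runs from 250 bases before to 50 after the start of the gene, and is written 5′ to 3′ on the strand of the gene. Capitals mark matches on either strand to the E2F motifs TTTCGCGC, TTTGGCGC, TTTCCCGC and TTTGCCGC, whose matches can overlap. Mcm6 is at chr1:128359656-128359955, Mcm3 at chr1:20820263-20820562 and Pcna at chr2:132253131-132253430, each on the minus strand.
Mcm6: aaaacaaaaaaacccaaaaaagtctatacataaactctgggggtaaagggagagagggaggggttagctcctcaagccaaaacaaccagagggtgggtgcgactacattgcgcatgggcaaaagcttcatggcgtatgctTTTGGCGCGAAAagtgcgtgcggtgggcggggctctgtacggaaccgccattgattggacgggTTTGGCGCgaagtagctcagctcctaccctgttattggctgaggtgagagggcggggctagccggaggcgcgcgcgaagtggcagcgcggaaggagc
Mcm3: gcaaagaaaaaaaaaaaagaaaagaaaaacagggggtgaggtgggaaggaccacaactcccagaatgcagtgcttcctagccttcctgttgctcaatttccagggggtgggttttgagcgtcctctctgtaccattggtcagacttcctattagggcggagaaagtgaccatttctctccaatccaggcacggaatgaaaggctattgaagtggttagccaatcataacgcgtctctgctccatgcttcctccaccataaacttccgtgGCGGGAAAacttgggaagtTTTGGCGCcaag
Pcna: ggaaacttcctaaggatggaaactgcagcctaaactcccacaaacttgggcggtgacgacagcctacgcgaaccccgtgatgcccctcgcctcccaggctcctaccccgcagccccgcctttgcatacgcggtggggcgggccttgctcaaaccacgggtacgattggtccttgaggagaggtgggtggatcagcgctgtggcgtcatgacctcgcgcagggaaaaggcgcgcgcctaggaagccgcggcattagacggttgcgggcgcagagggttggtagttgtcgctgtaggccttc

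The Mcm6 window held 3 matches, the first 2 of which overlap, with first bases at -110, -106 and -47 from the start. The Mcm3 window held 2, at bases 20 and 39 after the start, and the Pcna window held none of these letters. Promoters were at hand for 31 of the 37 genes, and 12 of the 31 (38.7%) had a match in at least 1 window. Of the 9885 tested genes with a promoter 4.61% had one, and the share was 2.60% over all 27025 genes with a RefSeq window. The 12 genes with a match were Mcm3, Mcm5, Mcm6, Mcm7, Orc1, Cdc6, Cdt1, E2f2, Pola1, Pold1, Rfc3 and Lig1. Their mean log2 ratios ran from 0.21 to 1.08 (median 0.49), and those of the 19 without a match from -0.26 to 0.76 (median 0.37). A match is a description of letters, and it was not tested against the ratios.

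Among the 12 licensing genes, 11 were higher on both arrays and the median of the mean ratios was 0.43. The 6 ring subunits, which work in equal numbers in the helicase, had mean ratios from 0.20 to 1.08. Mcm6 stood above the other 5 on both arrays, followed by Mcm3, although the processed signals put Mcm3 (0.83) beside Mcm6 (0.80). Mcm5 gave 7330.4 and 8470.3 in deficient samples, against 4926 and 5583 in control samples (mean log2 ratio 0.54 ± 0.07). Mcm4 gave 21910.2 and 19570.4, against 17475 and 15935 in control samples (0.41 ± 0.07). In both, every deficient sample lay above every control sample.

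Mcm7 and Mcm2 were the lowest of the ring. Mcm7 gave 24399 and 26598 in deficient samples, against 26550.5 and 21791 in control samples, and the groups overlapped (0.31 ± 0.12, or 0.08 from the processed signals). Mcm2 gave 3894 and 3652, against 3292 and 3271 in control samples (0.20 ± 0.07). The limma adjusted p was 0.206 for Mcm7 and 0.177 for Mcm2, and separate-channel limma called neither.

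The factors that load the ring were less alike. Cdt1, which brings MCM proteins to the origin, gave 11836 and 10889.5 in deficient samples, against 9077 and 6168 in control samples (0.57 ± 0.12). Its inhibitor geminin, the product of Gmnn, gave 15912 and 14775, against 12498 and 14127 in control samples (0.25 ± 0.11). On replicates 1 and 2 the ratios were 0.39 and 0.74 for Cdt1 and 0.40 and 0.10 for Gmnn. The 2 genes were level on replicate 1, and Cdt1 had the higher ratio on replicate 2.

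Cdc6, the ATPase that loads the ring with the origin recognition complex, gave 1633 and 1662 in deficient samples, against 1217 and 1180.4 in control samples (0.45 ± 0.08). Separate-channel limma called it (adjusted p = 0.0383). Cdc45, which joins the ring to make the active helicase, gave 274 and 382, against 174 and 223 in control samples (0.49 ± 0.08). Its processed signals gave a mean log2 ratio of 0.71. The 2 subunits of the origin recognition complex parted. Orc1, known to vary through the cell cycle, gave 255 and 236 in deficient samples, against 192 and 172 in control samples (0.29 ± 0.07). Its mean from the processed signals was 0.43. Orc2 gave 1536 and 1535, against 1567 and 1580.3 in control samples, and its ratios of -0.03 and -0.02 were within the error of 0 (mean -0.02 ± 0.07, limma adjusted p = 0.843).

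All 4 genes of S phase entry were higher on both arrays, with a median of 0.37. Ccne1, which encodes cyclin E1, gave 5453 and 5713 in deficient samples, against 3769 and 3583 in control samples (0.54 ± 0.08). E2f1, an activating E2F, gave 609 and 563, against 406 and 366 in control samples (0.51 ± 0.07). For both genes the 2 arrays read alike and the groups were apart, and separate-channel limma called both (adjusted p = 0.0300 each). Ccne2, for cyclin E2, gave 871 and 1194 in deficient samples, against 705 and 1012 in control samples, which overlapped (0.22 ± 0.07).

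E2f2, the other activating E2F here, changed direction with the processing. Its processed signals were 34505 and 33793 in deficient samples, against 38932 and 35536 in control samples, a mean log2 ratio of -0.12. The loess-normalised mean was 0.21 ± 0.07, at an intensity where the median gene had 0.42 and 0.36, and centring on such genes gave -0.18. Its ratio was thus below that of equally bright genes on both arrays.

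The 6 polymerase and primase genes were all higher on both arrays, with a median of 0.48. Pole, the catalytic subunit of the leading strand polymerase, gave 4189 and 4055 in deficient samples, against 2872 and 2457 in control samples (0.62 ± 0.09). Prim2, the large primase subunit, gave 4978 and 6058, against 3336 and 3542 in control samples (0.62 ± 0.09). Separate-channel limma called these 2 of the 6, with adjusted p of 0.0336 and 0.0465.

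Pola1, the catalytic subunit of the polymerase that extends primers, gave 2413 and 2377 in deficient samples, against 1772 and 1400.2 in control samples (0.57 ± 0.12). Its partner Pola2 gave 232 and 335, against 191 and 203 in control samples (0.37 ± 0.12, or 0.50 from the processed signals). Prim1 and Pold1 differed most between arrays in this role. Prim1, the primase that makes the RNA primer, had ratios of 0.61 and 0.18, and Pold1, the catalytic subunit of the lagging strand polymerase, 0.11 and 0.62. The other kept probe of Pold1 gave 0.06 and 0.57, so both its probes showed the same gap between arrays.

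The clamp gene Pcna and all 5 loader genes were higher on both arrays, with a median of 0.46 over the 6. The loader is a ring of RFC1 to RFC5 that opens the clamp. Rfc2 gave 13731 and 13233 in deficient samples, against 9171 and 9320.5 in control samples (0.53 ± 0.07). Rfc5 gave 7142 and 7025, against 5369 and 5203 in control samples (0.40 ± 0.07). In these 2 genes samples of 1 genotype lay close together, and separate-channel limma called both.

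Rfc4 showed the largest gap between arrays of all 37 genes, 0.89 on replicate 1 and 0.24 on replicate 2. The deficient samples gave 10076 and 10533, against 5174 and 8635 in control samples, so the gap lay in the control samples. Rfc3 averaged 0.37 ± 0.07 and Rfc1, the large subunit, 0.19 ± 0.07, the lowest mean ratio of the 6.

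Among genes of strand processing, 3 of 5 were higher on both arrays, with a median of 0.34. Lig1, the ligase that seals Okazaki fragments, gave 11211 and 10650.1 in deficient samples, against 8302 and 6874 in control samples (0.54 ± 0.09). Fen1, the nuclease that trims their flaps, gave 2531 and 2605, against 1761 and 2061 in control samples (0.37 ± 0.09). Both were apart between genotypes.

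The 3 subunits of replication protein A, which coats single-stranded DNA, did not move together. Rpa2 averaged 0.34 ± 0.09, Rpa1 0.04 ± 0.09 and Rpa3 -0.26 ± 0.18. Rpa3 gave 4069 and 4204 in deficient samples, against 3849.9 and 6328 in control samples, where replicate 2 alone was high. On replicate 1 alone its ratio was 0.06, and the limma adjusted p was 0.404, so no difference was established for it. Rpa1 gave -0.06 and 0.14 on the 2 arrays, but 0.02 and 0.17 from the processed signals. In those signals both deficient samples of Rpa1 lay above both control samples.

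All 4 genes of deoxynucleotide synthesis were higher on both arrays, with a median of 0.33. Rrm2, the regulatory subunit of ribonucleotide reductase, gave 7545 and 6543 in deficient samples, against 5345 and 3941 in control samples (0.54 ± 0.09). Rrm1, the large subunit, gave 9624 and 9321, against 7529 and 7714 in control samples (0.30 ± 0.07). Their samples did not overlap between genotypes.

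Tyms, which makes thymidylate, gave 17350.3 and 16407 in deficient samples, against 12614 and 15155 in control samples (0.36 ± 0.11). Tk1, which salvages thymidine, gave 3786 and 4927, against 3403 and 3588 in control samples (0.28 ± 0.11). Each was higher by less on one array, Tyms on replicate 2 with 0.21 and Tk1 on replicate 1 with 0.12. None of the 4 was called by separate-channel limma.

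For 9 members, another kept probe was well above background in all 4 channels, and all 9 such probes were higher on both arrays. Of these, the probe of Tyms gave 0.41 on replicate 1 and 0.02 on replicate 2, where the processed signals gave -0.03. The widest gap between such a probe and the one that stood for its gene was 0.27 in the mean log2 ratio, for Mcm3, whose other probe gave 0.49. Of the other kept probes, 1 of E2f1 and 1 of Tyms were not well above background in either control sample. They entered through the deficient samples alone, so their direction counts for nothing here. The 4 probes left out, of Mcm4, Rrm1, Pola2 and Pole, had processed signals of at most 31.5 and were not well above background in any sample.

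The spread between replicates lay more in the control samples, for the members as for all genes. The median absolute log2 difference between replicates in the processed signal was 0.07 for the 2 deficient samples and 0.18 for the 2 control samples over the 37 genes, and 26 of the 37 were closer in the deficient pair. Over all genes tested these medians were 0.15 and 0.20, and 60.3% of genes were closer in the deficient pair. For genes in the members' range of intensity they were 0.13 and 0.20, with 63.6% closer, near the 70.3% of members. Each genotype had its own dye, so dye and genotype cannot be told apart here. Between arrays the members' ratios differed by a median of 0.20, against 0.13 for all genes and 0.17 for genes in the members' range of intensity.

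Genes with related roles were read beside the members. Of 52 other replication genes tested, 40 were higher on both arrays and 4 lower, with a median of 0.27, and separate-channel limma called 13, all higher. Uhrf1, which brings DNA methyltransferase to newly made DNA, had a mean of 0.79 ± 0.07, Shmt1, a folate enzyme that serves thymidylate synthesis, 0.73 ± 0.13, and Timeless, a fork protection factor, 0.73 ± 0.07. Orc4 (-0.30 ± 0.09) and Cdca7 (-0.16 ± 0.07) were the lowest. Limma adjusted p was 0.0711 for Uhrf1, 0.0904 for Shmt1, 0.0740 for Timeless, 0.141 for Orc4 and 0.229 for Cdca7.

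Of 17 E2F, Rb and CDK2 genes tested, 11 were higher on both arrays and 1 lower, with a median of 0.24 and 2 called by separate-channel limma. The activating factor gene E2f3 had the highest mean at 0.60 ± 0.09, followed by the CDK inhibitor gene Cdkn2c at 0.46 ± 0.12 and Tfdp2, an E2F partner, at 0.42 ± 0.10. E2f5, which encodes a repressive E2F, stood at -0.16 ± 0.08 and Cdkn1b at -0.05 ± 0.13. None of the 17 passed limma's main test.

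Genes of mitosis were close to the members, with a median of 0.40 over 38 genes, 29 of them higher on both arrays, 1 lower and 11 called by separate-channel limma. Cdc25b, a phosphatase that activates CDK1, stood far above the rest at 2.14 ± 0.23, followed by Cdc20, an activator of the anaphase-promoting complex, at 0.82 ± 0.17 and Incenp, a partner of Aurora B kinase, at 0.72 ± 0.11. Ube2c (-0.08 ± 0.08) and Kif11 (-0.04 ± 0.19) were the lowest. No test compared the members with these lists, and they were measured on the same 2 arrays.

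**Figure D4:**
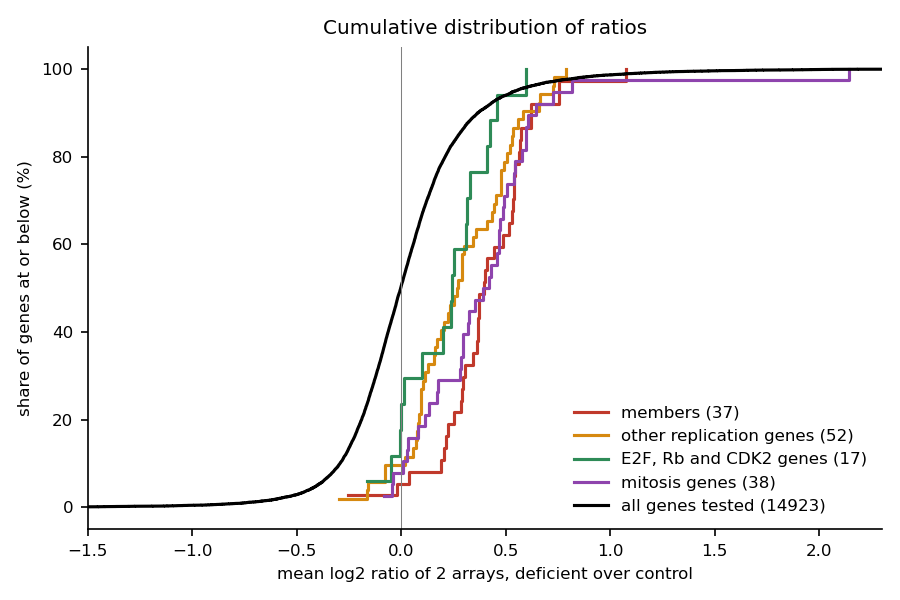
Cumulative share of genes (%) at or below each mean log2 ratio of deficient over control cells for the 37 members, 52 other replication genes, 17 E2F, Rb and CDK2 genes, 38 mitosis genes and all 14923 genes tested. The curves of the members and the mitosis genes lie right of that of all genes, with medians of 0.40 and 0.40, and the other 2 lists lie between, with medians of 0.27 and 0.24. The horizontal range leaves out the most extreme genes.

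Markers of DP cells and of other cells were also read, and none passed limma's main test. Of all genes tested, 36.4% were higher on both arrays and 38.5% lower. Separate-channel limma called 2 DP markers as lower and 1, Cd8b1, as higher. It called 4 markers of earlier thymocytes and 1 stromal marker, all higher, and no macrophage, B cell or erythroid marker. Of 12 DP markers, 10 were lower on both arrays, with a median of -0.31, or -0.47 both from the processed signals and after centring on genes of like intensity, and 0.05 with median centring. Ccr9 (-1.37) and Arpp21 (-0.68) were the lowest, and Cd8b1 (0.48) and Cd8a (0.01) the highest. These directions and ranks turned with the processing for the brightest genes. Cd8b1 gave -0.79 after centring on genes of like intensity and 0.07 from the processed signals, and Cd8a -0.47 and -0.34. Rag1, named after its values were seen, had -0.27, but -1.36 after that centring, below Arpp21 at -0.72. Summed processed signals of the list were 229644 and 194950 in deficient samples, against 309946 and 282651 in control samples.

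Of 12 markers of earlier thymocytes tested, 8 were higher on both arrays and 1 lower, with a median of 0.42, or 0.84 from the processed signals. The 8 include Hes1, which was not well above background in either control sample and entered through the deficient samples. Without it 7 of 11 were higher, with a median of 0.47. Lyl1 (2.43), Il7r (1.60) and Cd44 (0.94) were the highest and Ptcra (-0.24) and Notch3 (-0.10) the lowest. Their summed signals were 16220.2 and 14408 in deficient samples, against 10873 and 7294 in control samples. Earlier thymocytes are known to include rapidly dividing cells, and their part in the result was not tested.

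Of 12 macrophage markers tested, 9 were higher on both arrays and 2 lower, with a median of 0.32 and sums of 37403 and 34694 in deficient samples, against 32489 and 13280.0 in control samples. Lyz2 (1.03) and Adgre1 (0.92) led, with Cd163 at least 1.36-fold higher, its control signals being not well above background, and Itgam (-0.20) and Cd14 (-0.14) were the lowest. Lyz2 gave 0.31 on replicate 1 and 1.75 on replicate 2. Without Cd163, which entered through the deficient samples, 8 of 11 were higher, with a median of 0.31. Of 10 stromal markers, 6 were higher on both arrays and 3 lower, with a median of 0.34 and sums of 9440.9 and 3499 in deficient samples, against 9670.2 and 2112 in control samples. Col1a1 (0.84), Dcn (0.84) and Col1a2 (0.77) led, with Col1a1 and Col1a2 well above background in 1 control sample, and Epcam (-0.41) and Krt8 (-0.30) were the lowest. Krt8 differed in direction between arrays, with -0.84 on replicate 1 and 0.25 on replicate 2. Of 5 B cell markers, 3 were lower on both arrays and none higher, from -0.06 for Pax5 and -0.20 for Blk to -0.46 for Cd79b and -0.52 for Ms4a1, with sums of 3836 and 2845 in deficient samples, against 5988 and 3581 in control samples. The erythroid markers Hba-a1 and Alas2 were lower on replicate 1 (-0.42 and -0.38) and higher on replicate 2 (2.26 and 1.92), with sums of 24424 and 43462 in deficient samples, against 39737 and 9945 in control samples. The part of these cells in the replication result was not tested.

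**Figure D5:**
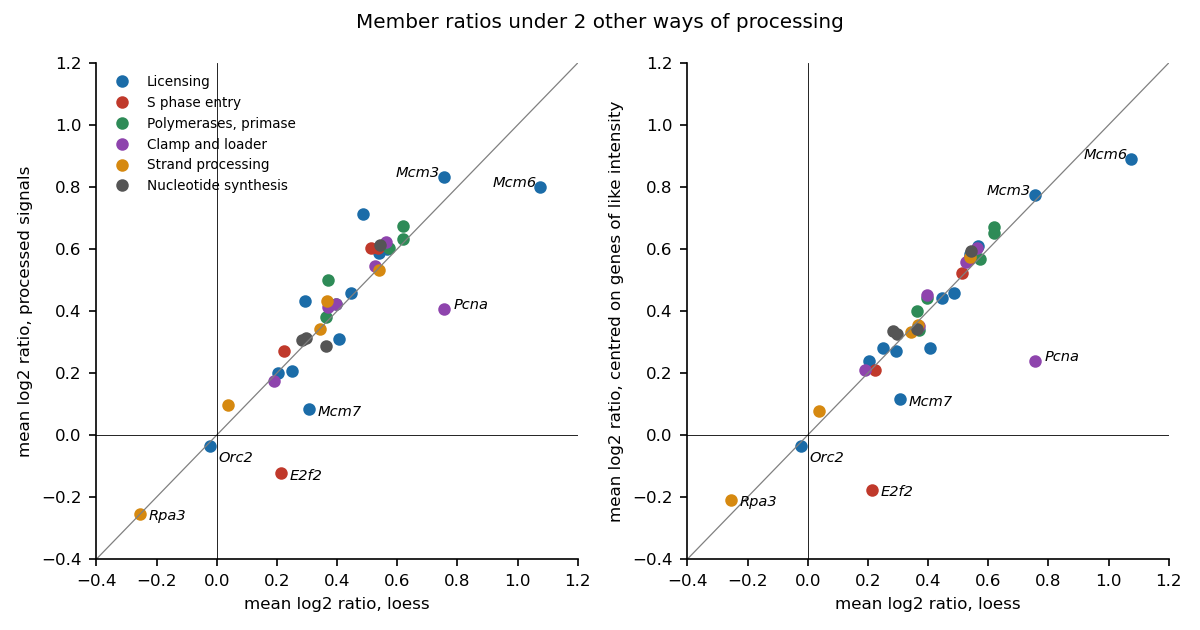
Mean log2 ratio of deficient over control cells for the 37 genes, as loess-normalised (horizontal axes) against the processed signals (left) and against values centred on genes of like intensity (right), coloured by role, with a grey line where both are equal. Most genes lie near the line, and the bright genes Pcna, Mcm6, Mcm7 and E2f2 lie below it, with E2f2 below 0 at -0.12 and -0.18.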

How the data were processed

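RNA of 2 Bcl11b-deficient and 2 control samples was hybridised on 2 arrays of a mouse 2-colour design, after linear amplification and ULS labelling per the labels' protocols. Scans were read by the authors in Feature Extraction 9.5.3.1 (Agilent), per the submitters' processing notes. The deposited mean and local background signals are raw scanner intensity values, and the deposited processed signals are intensity values with spatial detrending, lowess dye normalisation and substitutes for dim spots, per the file headers. The deposited log10 ratio is that of processed Cy5 over processed Cy3, and the deposited value table matches it. Probe positions are in mm8, per the file headers, and no mm8 annotation was used here.

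Mean signals were corrected by normexp with an offset of 50 and normalised by loess within arrays (R 4.3.3, limma 3.58.1). Spots marked as outliers, 108 and 116, were left out. A probe entered if 1 channel was well above background on both arrays, which left 21539 of 41174. The brightest kept probe stood for its gene. Ratios were tested against 0 with limma, which had 1 residual and 2.51 prior degrees of freedom, with Benjamini-Hochberg adjustment over 14923 genes. The code of the test was run on ratios simulated from its own fitted spread, which cannot check for dye or intensity bias. Centring on genes of like intensity used a running median of 501 genes. The labels call the replicates biological without naming the mice, so p-values measure the spread between these samples.

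The members and lists were chosen with earlier results of these data known. Every member is named. Signals are given for members at least 1.5-fold higher or lower on both arrays and for further members of each role, and the 3 highest and 2 lowest genes of each other list are named, except 2 marker genes that are not reported here. Of 6 erythroid markers 2 were tested, of 7 B cell markers 5, of 12 stromal markers 10 and of 53 other replication genes 52.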

Additional observations from a re-analysis of the deposited data

How the results depend on the processing

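The direction of the members' median held under every alternative run. It was 0.42 with processed signals, 0.77 with median centring in place of loess, where the median of all genes was 0.13, 0.36 with centring on genes of like intensity and 0.42 with the deposited value table. With 1 array left out it ran from 0.40 to 0.45. Between 32 and 36 members were higher on both arrays in all settings. Of all genes, 36.4% were so in the main setting, 33.5% with processed signals and 36.6% with centring on genes of like intensity. That share is not given for the other settings. Median centring leaves the dependence on intensity in place. It called 21 members and put 20 at least 1.5-fold higher on both arrays, and separate-channel limma called 12 members. Over all genes, 0 were called in the main setting (4361 had an unadjusted p under 0.05), 213 with processed signals, 989 with median centring, 28 with the deposited value table and 1277 with separate-channel limma. Single members changed direction in 7 cases. E2f2 gave -0.12 with processed signals and the deposited value table alike and -0.18 with centring on genes of like intensity, and Orc2 gave 0.17 and Rpa3 0.068 with median centring. With 1 array left out, Rpa1 ran from -0.062 to 0.14 and Rpa3 from -0.57 to 0.059, and counts that need both arrays have no such value. The cause was not tested. The replicate number is that of the array, and each ratio is taken within an array, so the main test is already paired. Negative controls had median mean signals of 923 and 1036 in deficient samples, against 696 and 732 in control samples, which limits the ratios of dim members such as Orc1, Pola2 and Cdc45.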
